A study of Rattus norvegicus with 20 samples.

Results

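The genes described here are 9 genes that mark mast cells, chosen by name from a list: Cpa3, Tpsab1, Tpsb2, Cma1, Kit, Fcer1a, Ms4a2, Hdc and Gata2. Each was looked up by its symbol in the expression table, and its brightest feature was to be used where it had several. In all, 8 of the 9 were measured, each by 1 feature, out of 14557 genes with a single symbol. Cma1, a mast cell chymase, was not measured here.

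Transcript levels came from 20 arrays of retroperitoneal tissue of male ZDF (Zucker diabetic fatty) rats, a model of obesity with type 2 diabetes, with 5 arrays in each of 4 groups. All rats were housed singly on a reversed light cycle with free access to food and water, and the strain is labelled Zucker. The lean control group ate a standard chow, and the obese group had a stock diet for 6 weeks. The other groups are labelled rosiglitazone, an insulin-sensitising drug that activates the nuclear receptor PPAR gamma, and resveratrol, a plant polyphenol. The sources used here do not give their dose, diet and duration, whether these rats were obese, or the age of any group. By their labels, the 5 arrays within a group are biological replicates.

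Mast cells are tissue-resident immune cells that sit along vessels and connective tissue, adipose tissue included. They depend on stem cell factor acting through the receptor Kit, carry the high-affinity receptor for IgE on their surface, and store histamine and proteases in granules bound to the proteoglycan serglycin. On stimulation they release the granules and make prostaglandin D2 and leukotrienes.

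All levels below are log2 values made with RMA, so a difference of 1 is a doubling, and levels of different genes are not compared. A difference is called where its limma p, adjusted by the Benjamini-Hochberg method over all 14557 genes, lies under 0.05. The tissue label was borne out by Adipoq, the adipocyte hormone adiponectin, whose lean control level was 11.02 ± 0.06 (SD, n = 5). The mast cell label was borne out only in part. Over the 20 arrays, 5 of the 8 measured members (Cpa3, Tpsab1, Tpsb2, Kit and Gata2) had a mean above the level of the median gene, 3.02. The other 3, the IgE receptor chains Fcer1a and Ms4a2 and the histamine-forming enzyme Hdc, stayed under it on every array. No level was tested against background. In whole tissue, fewer mast cells and less RNA per mast cell cannot be told apart, and Kit and Gata2 are also used by other cells.

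Some arrays stood apart from the rest. The score of a marker list on an array is how far its genes lay, on average and in log2 units, from their own averages over all arrays. Resveratrol array 1 had a skeletal muscle score of 5.95, against -0.51 to -0.06 on the other 19 arrays, a milk protein score of 6.73 and an adipocyte score of -1.98. Obese array 2 had a urothelium score of 5.18, against -1.11 to 0.36 on the others. Rosiglitazone array 2 had the lowest fibroblast score, -1.88, and the lowest macrophage score, -1.28. Several of the results that turn on these arrays are given with and without them.

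**Figure D1:**
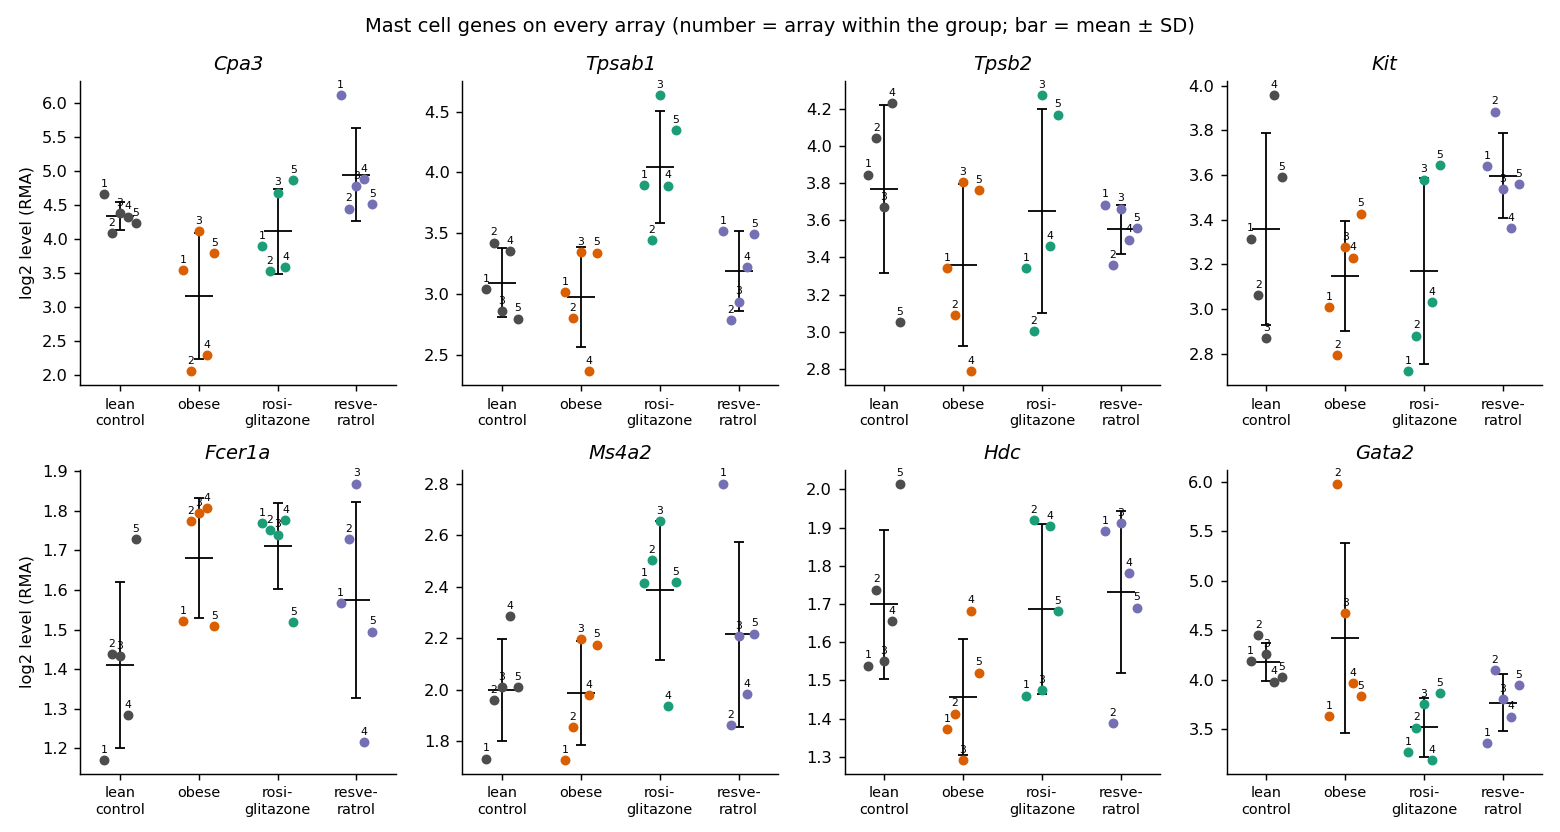
Log2 level (RMA) of the 8 measured mast cell genes on all 20 arrays, 1 panel per gene with its own vertical scale; points are arrays, numbered within the group, and bars are the group mean ± SD (n = 5). Tpsab1 was higher on the rosiglitazone arrays (3.44 to 4.64) than on any obese (2.36 to 3.35) or lean control (2.80 to 3.42) array, and Cpa3 ran from 2.06 to 4.12 in the obese group against 4.45 to 6.13 in the resveratrol group.

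Across the 4 groups, limma's F test passed for 2 of the 8 members, the granule proteases Cpa3 (adjusted p = 0.0188) and Tpsab1 (adjusted p = 0.00983), where 8.83% of all genes passed. Between pairs of groups, 1 member was called, and it was Tpsab1 each time. It was higher in the rosiglitazone group than in the obese, lean control and resveratrol groups. The related tryptase gene Tpsb2 was called in none of the 6 comparisons, nor were Kit, Fcer1a, Ms4a2, Hdc and Gata2. Comparisons against the same group share its 5 arrays, so they are not independent of each other.

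The granule proteases come first. Cpa3 encodes carboxypeptidase A3, a metalloprotease of the mast cell granule, and Tpsab1 and Tpsb2 encode tryptases, serine proteases that form tetramers in the same granules. Within groups, the levels of these 3 genes rose and fell together, as given below. The part of promoter sequence in that was not tested. The 250 bases before the annotated start sites of these 3 genes are shown. They are RefSeq promoter sequences of rat build GRCr8, printed 5′ to 3′ on the gene's strand. They lie at chr2:104673238-104673487 (minus strand) for Cpa3, chr10:14867303-14867552 (minus strand) for Tpsab1 and chr10:14886060-14886309 (plus strand) for Tpsb2. Capitals mark GATAA, the core bound by GATA factors such as Gata2, and CACATG, an E-box bound by the mast cell factor Mitf, each searched on both strands (as TTATC and CATGTG on the other).
Cpa3: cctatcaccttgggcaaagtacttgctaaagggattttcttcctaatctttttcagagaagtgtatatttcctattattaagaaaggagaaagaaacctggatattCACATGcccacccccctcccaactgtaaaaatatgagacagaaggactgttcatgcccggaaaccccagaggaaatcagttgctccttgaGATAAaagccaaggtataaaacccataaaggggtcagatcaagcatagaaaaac
Tpsab1: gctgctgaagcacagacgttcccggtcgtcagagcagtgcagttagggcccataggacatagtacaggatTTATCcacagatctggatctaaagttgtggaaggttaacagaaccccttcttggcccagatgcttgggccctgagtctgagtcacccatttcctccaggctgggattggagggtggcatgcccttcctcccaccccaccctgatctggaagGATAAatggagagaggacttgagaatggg
Tpsb2: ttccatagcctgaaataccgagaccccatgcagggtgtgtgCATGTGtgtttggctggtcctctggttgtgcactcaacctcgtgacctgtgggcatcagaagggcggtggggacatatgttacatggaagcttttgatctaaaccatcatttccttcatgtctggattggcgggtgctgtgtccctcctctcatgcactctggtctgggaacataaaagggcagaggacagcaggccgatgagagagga
The Cpa3 window holds 1 GATAA match, beginning 54 bases before the start, and 1 CACATG match at 144 bases. The Tpsab1 window holds 2 GATAA matches, at 180 and 29 bases, and no CACATG match, and the Tpsb2 window holds 1 CACATG match, at 209 bases, and no GATAA match. Matches of the 2 motifs did not overlap in these windows. Of the 33469 RefSeq promoters of this length, 23.5% hold GATAA and 12.1% hold CACATG, so such matches are common. Of the 8 members with a promoter entry, 4 held GATAA (Cpa3, Tpsab1, Cma1 and Fcer1a) and 3 held CACATG (Cpa3, Tpsb2 and Fcer1a). Ms4a2 had no entry.

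In the lean control group, Tpsab1 lay at 3.04, 3.42, 2.86, 3.35 and 2.80 on arrays 1 to 5. In the obese group its levels were 3.01, 2.80, 3.35, 2.36 and 3.34. These groups overlapped over most of their range. The rosiglitazone arrays read 3.90, 3.44, 4.64, 3.89 and 4.35. The resveratrol arrays read 3.52, 2.78, 2.94, 3.22 and 3.49. All 5 rosiglitazone arrays lay above every lean control and obese array. The lowest of them, array 2 at 3.44, lay under resveratrol arrays 1 and 5, at 3.52 and 3.49.

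Tpsab1 was therefore higher in the rosiglitazone group (4.04 ± 0.46, SD, n = 5) than in the obese group (2.97 ± 0.41), by 1.07 (SE 0.22, 95% interval 0.61 to 1.53, limma adjusted p = 0.00383). It was the 1 member of 8 called in this comparison, where 9.86% of all genes were called, 7.19% as higher and 2.67% as lower. It was also the 1 member without overlap between these groups, against 8.33% of all genes. The obese mean lay under the median gene, so the difference is not given as a fold.

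Against the lean control group (3.09 ± 0.28), Tpsab1 was 0.95 higher under rosiglitazone (SE 0.22, adjusted p = 0.0130), which is 1.93-fold. It was again the 1 member called, against 5.19% of all genes called, 2.63% as higher and 2.56% as lower. Gata2 as well as Tpsab1 had no overlap between these groups, 2 of 8 members against 5.47% of all genes. Against the resveratrol group (3.19 ± 0.33), Tpsab1 was 0.85 higher (SE 0.22, adjusted p = 0.0228), or 1.81-fold, where 6.90% of all genes were called, 4.09% as higher and 2.81% as lower. No member was free of overlap between these groups, against 7.59% of all genes. That last call was lost without rosiglitazone array 3 (adjusted p = 0.0613) or array 5 (0.0558), and without resveratrol array 2 (0.0680) or array 3 (0.0635). Against the obese group the call held with any 1 array left out, with differences of 0.92 to 1.22.

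Markers of other cells also differed in the rosiglitazone group. Of 6 measured endothelial markers, 4 were lower and 1 was higher in each of its 3 comparisons. Of all genes, 9.86%, 5.19% and 6.90% were called against the obese, lean control and resveratrol groups. The red blood cell marker Hba-a1 was higher than in the obese group, and the score of the 2 measured red blood cell markers ran from -0.34 to 3.94 with rosiglitazone against -1.22 to 0.44 in the other groups. Of 6 fibroblast markers, 1 was lower than in the obese, 1 than in the lean control and 3 than in the resveratrol group. The part of these markers in the level of Tpsab1 was not tested.

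The lean control, obese and resveratrol groups were not told apart by Tpsab1. The difference was -0.12 for obese minus lean control (95% interval -0.58 to 0.34), 0.22 for resveratrol minus obese (-0.25 to 0.68) and 0.10 for resveratrol minus lean control (-0.37 to 0.56). Differences of the size seen with rosiglitazone against these groups lay outside all 3 intervals.

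**Figure D2:**
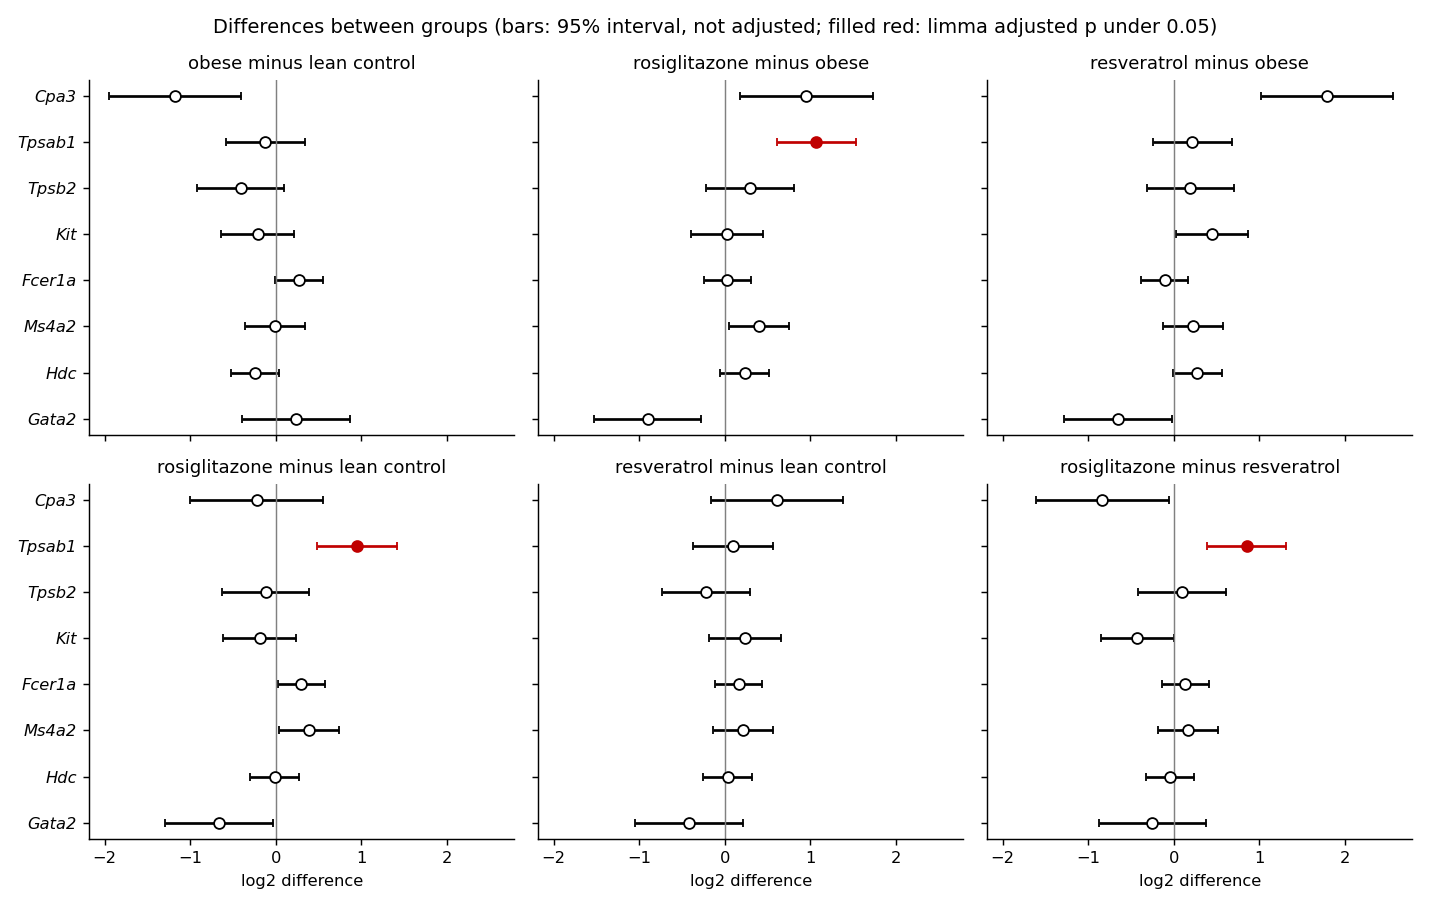
Log2 differences of the 8 measured members in the 6 comparisons, with unadjusted 95% intervals from limma; filled red marks an adjusted p under 0.05. The red points belong to Tpsab1 in the 3 comparisons that hold the rosiglitazone group, at 1.07, 0.95 and 0.85, and the interval of Cpa3 for resveratrol minus obese, 1.02 to 2.56, lies farthest from 0 among the points that were not called.

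Tpsb2 lies beside Tpsab1 on rat chromosome 10, between Tpsab1 and Tpsg1 in the RefSeq gene order. Because the genes are related, signal shared between their probes cannot be told apart from each gene's own. The levels of Tpsb2 were 3.85, 4.04, 3.67, 4.23 and 3.05 in the lean control group and 3.34, 3.09, 3.80, 2.79 and 3.76 in the obese group. They were 3.34, 3.0, 4.28, 3.46 and 4.17 with rosiglitazone and 3.68, 3.36, 3.66, 3.50 and 3.56 with resveratrol. All groups overlapped. The means ran from 3.36 ± 0.44 (obese) to 3.77 ± 0.45 (lean control), with adjusted p-values of 0.479 to 0.892. For rosiglitazone minus obese the difference of Tpsb2 was 0.29 (95% interval -0.22 to 0.80), and for rosiglitazone minus lean control it was -0.12 (-0.63 to 0.39).

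Array by array, the tryptases went together within a group but stood in a different relation with rosiglitazone. After each group's mean was removed, the levels of Tpsab1 and Tpsb2 correlated at r = 0.875 over the 20 arrays, which share their normalisation and, possibly, probe signal. The difference of Tpsab1 less Tpsb2 on the same array was 0.39 ± 0.14 (SD, n = 5) in the rosiglitazone group. It was -0.38 ± 0.07 in the obese, -0.68 ± 0.25 in the lean control and -0.36 ± 0.28 in the resveratrol group. The sign of a difference between genes has no meaning here, but its shift between groups does not depend on a constant offset of either probe set.

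That shift was 0.78 for rosiglitazone minus obese, 1.07 against the lean control group and 0.76 against the resveratrol group. In each, all 5 rosiglitazone arrays lay above all 5 of the other group (two-sided exact permutation test, p = 0.00794, the smallest that 252 groupings allow; 0.0159 adjusted over 6 comparisons). The remaining comparisons gave 0.29 for obese minus lean control (exact p = 0.0635, adjusted 0.0952), 0.31 for resveratrol minus lean control (0.0873, adjusted 0.105) and 0.02 for resveratrol minus obese (0.865). This measure was chosen after the values of both genes had been seen.

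**Figure D3:**
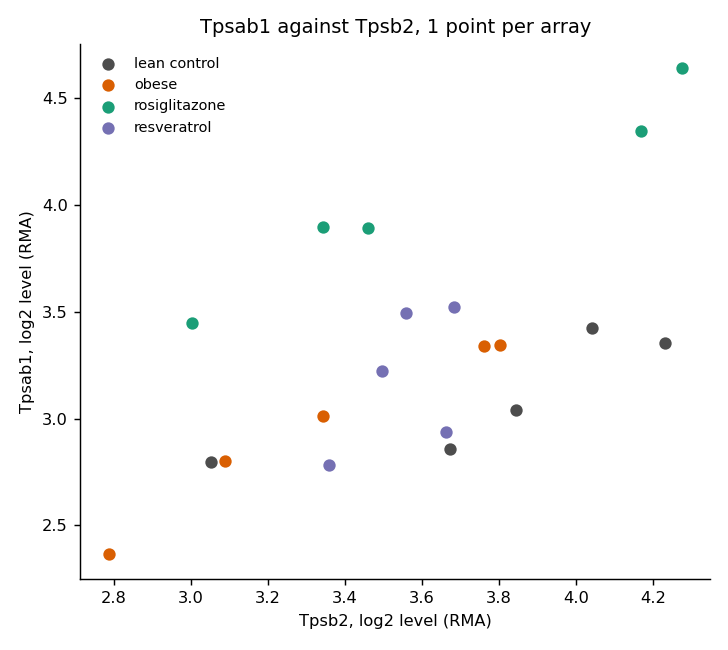
Log2 level of Tpsab1 (vertical) against that of Tpsb2 (horizontal), 1 point per array, coloured by group. In every group Tpsab1 tends to be high where Tpsb2 is high, and the 5 rosiglitazone points form a line of their own above the other 15, with a difference of Tpsab1 less Tpsb2 of 0.39 on average against -0.68 to -0.36 in the other groups.

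The group means of Cpa3 followed another order: highest with resveratrol, then lean control, rosiglitazone and obese. In the lean control group Cpa3 lay close together, at 4.66, 4.09, 4.38, 4.33 and 4.24. In the obese group it was spread widely, at 3.54, 2.06, 4.12, 2.30 and 3.80. The obese arrays were all below the lean control mean, but obese array 3 overlapped the lean control range. With rosiglitazone Cpa3 read 3.90, 3.53, 4.69, 3.59 and 4.88. With resveratrol it read 6.13, 4.45, 4.79, 4.88 and 4.52, so that all resveratrol arrays lay above all obese arrays.

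The largest difference of Cpa3 was resveratrol (4.95 ± 0.68) minus obese (3.16 ± 0.93), at 1.79 (SE 0.37, 95% interval 1.02 to 2.56), which is 3.46-fold. Its unadjusted p was 9.12e-05, and it did not pass after adjustment over all genes (limma adjusted p = 0.170). In this comparison 0 of 14557 genes, 0.00%, were called by limma, and 1286 had an unadjusted p under 0.05. Cpa3 was the 1 member of 8 without overlap between these groups, against 1.97% of all genes. The value rests partly on arrays that stand apart: it was 1.50 without resveratrol array 1, and 1.22 (adjusted p = 0.695) without that array and obese array 2.

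Cpa3 was 1.18 lower in the obese than in the lean control group (4.34 ± 0.21; SE 0.37, unadjusted p = 0.00462, adjusted p = 0.176), with 5 of 5 obese arrays under the lean control mean. None of the 8 members was called there, against 0.179% of all genes (0.0412% higher and 0.137% lower), and 1 had an unadjusted limma p under 0.05. None was free of overlap between these groups, against 2.64% of all genes. Rosiglitazone minus obese was 0.95 (adjusted p = 0.116), with 5 of 5 rosiglitazone arrays above the obese mean and overlapping ranges. Rosiglitazone minus resveratrol was -0.83 (adjusted p = 0.212), rosiglitazone minus lean control -0.22 (0.828) and resveratrol minus lean control 0.61 (0.496). Without resveratrol array 1, rosiglitazone minus resveratrol was -0.54 (adjusted p = 0.454) and resveratrol minus lean control 0.32 (0.766). In the comparison of resveratrol with lean control, 0 of 8 members were called against 0.124% of all genes (0.0275% higher and 0.0962% lower), 0 members had an unadjusted limma p under 0.05, and 0 were free of overlap, against 2.96% of all genes. Cpa3 was thus called in no comparison, and no pair of groups, neighbours or extremes in the order of means, was separated by the pairwise test. The F test of Cpa3 fell short without obese array 4 (adjusted p = 0.0558), and without resveratrol array 1 and obese array 2 together (0.0678).

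With group means removed, Cpa3 correlated over the 20 arrays with Tpsab1 (r = 0.691) and Tpsb2 (r = 0.672), the other granule proteases. The same measure was 0.538 with Ms4a2 and 0.408 with Kit, and it was -0.333 with Fcer1a, -0.181 with Hdc and -0.338 with Gata2. Over the 18 arrays without resveratrol array 1 and obese array 2 it was 0.725 with Tpsab1 and 0.761 with Tpsb2, but 0.296 with Ms4a2 and 0.398, of opposite sign, with Gata2. These are descriptions of arrays that share their normalisation and tissue makeup. The array plot shows what else moved with Cpa3: the fibroblast score (r = 0.760, and 0.668 over 18 arrays without resveratrol array 1 and obese array 2) and the macrophage score (0.694 and 0.659). In the obese group, array 2 had the lowest Cpa3 and also the lowest fibroblast score (-0.70) and macrophage score (-1.09) of that group. In the resveratrol group, array 1 had the highest Cpa3 and the highest fibroblast score (1.40). The tryptases moved with these scores too: over 20 arrays r was 0.653 (fibroblast) and 0.513 (macrophage) for Tpsab1, and 0.613 and 0.604 for Tpsb2. The part of these markers in the differences of Cpa3, or in the correlations among the granule proteases, was not tested.

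**Figure D4:**
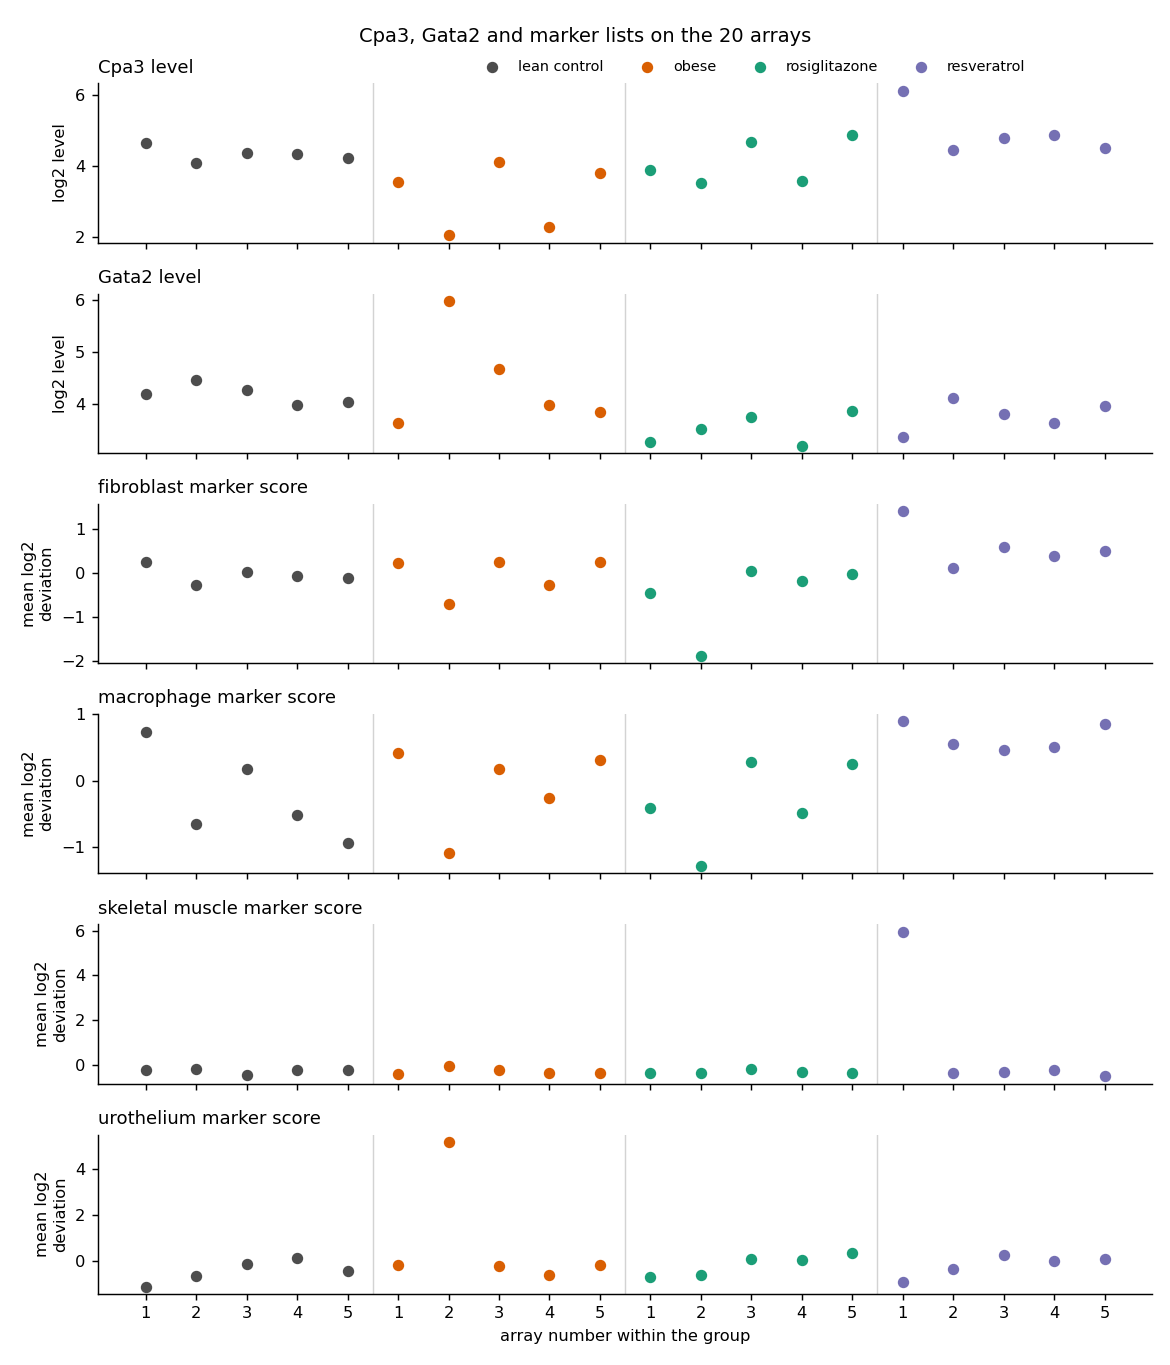
From top to bottom, the log2 levels of Cpa3 and Gata2 and the scores of the fibroblast, macrophage, skeletal muscle and urothelium marker lists (mean log2 deviation of the list's genes from their averages over all arrays) on the 20 arrays, in order of group and array number. Resveratrol array 1 is highest for Cpa3 (6.13) and for skeletal muscle (5.95), and obese array 2 is lowest for Cpa3 (2.06) and highest for Gata2 (5.98) and urothelium (5.18).

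The genes whose levels were most like those of Cpa3, by Pearson's r over the 20 arrays with group means removed, were Ms4a6bl1 (0.884), Rasgrp4 (0.851), Alox5 (0.840), Irak3 (0.835) and Snx1 (0.832). By Spearman's measure they were Ms4a6bl1, C1r, Dcn, Colec12 and Lum. Without resveratrol array 1 and obese array 2, the 5 nearest by Pearson's r were Vnn1 (0.811), Ms4a4a (0.802), C1qc (0.797), Cyld (0.797) and Rnase4 (0.792), none of which was among the first 5. By Spearman's measure over those 18 arrays they were Cyld, Clec10a, Ms4a6bl1, Sag and Aktip. Ms4a6bl1 thus stayed among the nearest by rank (rho 0.892 over 20 arrays and 0.820 over 18), with a Pearson r of 0.771 over 18, while the other genes in each list were replaced.

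Kit and the subunits of the IgE receptor are the members on the cell surface. Kit, the receptor for stem cell factor, had means of 3.36 ± 0.43 in the lean control, 3.15 ± 0.25 in the obese, 3.17 ± 0.42 in the rosiglitazone and 3.60 ± 0.19 in the resveratrol group (SD, n = 5). Its resveratrol levels were 3.64, 3.88, 3.54, 3.36 and 3.56, and its obese levels 3.01, 2.79, 3.28, 3.23 and 3.43. All resveratrol arrays lay above the obese mean, with overlap between the ranges. The difference was 0.45 (95% interval 0.03 to 0.87, unadjusted p = 0.0385, limma adjusted p = 0.535). The other comparisons of Kit had differences of -0.42 to 0.24 and were not called.

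Fcer1a, the chain of the receptor that binds IgE, ran from 1.17 to 1.87 over all arrays. Ms4a2, the beta chain that amplifies its signal, ran from 1.73 to 2.80, and Hdc, which makes histamine from histidine, from 1.29 to 2.02. None was called in any comparison. The group means of Ms4a2 were 2.0 (lean control), 1.99 (obese), 2.39 (rosiglitazone) and 2.22 (resveratrol), and rosiglitazone minus obese was 0.40 with an adjusted p of 0.149. For Fcer1a, rosiglitazone minus lean control was 0.30 (adjusted p = 0.226). For Hdc, the obese mean was the lowest at 1.46, against 1.69 to 1.73 in the other groups, and resveratrol minus obese was 0.28 (adjusted p = 0.577). At these levels, differences of dim probes may understate differences in transcript.

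Gata2, a transcription factor that mast cells need and that adipocyte precursors also express, had lower means in the rosiglitazone (3.52) and resveratrol (3.77) groups than in the lean control (4.18) and obese (4.42) groups. It read 4.19, 4.45, 4.26, 3.98 and 4.02 in the lean control group and 3.26, 3.52, 3.75, 3.19 and 3.86 with rosiglitazone. These ranges did not overlap. In the obese group it read 3.63, 5.98, 4.68, 3.96 and 3.84, with array 2 far above the rest, and with resveratrol 3.36, 4.10, 3.80, 3.63 and 3.95. Rosiglitazone minus lean control was -0.66 (SE 0.30, limma adjusted p = 0.241), and rosiglitazone minus obese was -0.90 (SE 0.30, adjusted p = 0.0623), with 5 of 5 rosiglitazone arrays below the mean of the other group in both.

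Obese array 2 widened the spread that limma used for Gata2 in every comparison. Without that array, rosiglitazone minus lean control passed the test (adjusted p = 0.0391), and obese minus lean control changed from 0.24 to -0.15. Rosiglitazone minus obese shrank to -0.51 (adjusted p = 0.131) without obese array 2, and resveratrol minus obese went from -0.65 (adjusted p = 0.548) to -0.26. Rosiglitazone minus obese passed without obese array 1 or array 5 (adjusted p = 0.0237 and 0.0484), fits that keep array 2. With group means removed, Gata2 correlated with the urothelium score at r = 0.821 over 20 arrays and 0.479 over the 18 without obese array 2 and resveratrol array 1. With the endothelial score, r was -0.267 over 20 arrays and 0.195 over 18. The part of urothelium markers in the obese level of Gata2 was not tested. Nor was that of the endothelial markers, lower with rosiglitazone as described above, in its rosiglitazone level.

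Over all 8 members, the median difference was -0.17 for obese minus lean control, 0.26 for rosiglitazone minus obese and 0.22 for resveratrol minus obese. The median over all genes was -0.05, 0.01 and 0.02 in these comparisons. It was -0.06 for rosiglitazone minus lean control, 0.13 for resveratrol minus lean control and 0.03 for rosiglitazone minus resveratrol, beside -0.01, -0.04 and 0.03 over all genes. The difference was above 0 for 2, 7, 6, 3, 6 and 4 of the 8 members in that order. These medians moved with single arrays: with 1 left out, obese minus lean control ran from -0.24 to -0.06 and resveratrol minus obese from 0.15 to 0.32. Over the 5 members left without dim genes, rosiglitazone minus resveratrol had a median of -0.25.

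Other genes of the mast cell's machinery were taken from lists by role. For the granule, 10 of 16 further proteases were measured, none lay above the median gene and none was called in any comparison. Mcpt1, a rat mast cell chymase, had group means of 0.58 to 0.85 and did not exceed 1.40 on any array. Tpsg1, a membrane-bound tryptase gene next to Tpsb2, had means of 1.67 (lean control), 2.01 (obese), 2.02 (rosiglitazone) and 1.80 (resveratrol). Of 9 measured genes of 12 for granule packing and amine handling, 1 was called, in 1 comparison. In that comparison 5.19% of all genes were called. The called gene was Srgn, the proteoglycan serglycin, which was lower with rosiglitazone (7.24 ± 0.55) than in the lean control group (8.02 ± 0.04) by 1.73-fold (log2 difference -0.79, SE 0.21, adjusted p = 0.0296). The rosiglitazone arrays were spread from 6.50 to 7.86 and all lay under the lean control range of 7.98 to 8.09. The call was lost with any of lean control arrays 2 to 5 or rosiglitazone arrays 3 or 4 left out (adjusted p up to 0.0857). Serglycin is also made by other blood cells and by endothelium.

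All 7 genes of prostaglandin D2 and leukotriene synthesis were measured and none was called. Alox5, the 5-lipoxygenase that starts leukotriene synthesis, had means of 4.14 ± 0.35 (lean control), 3.69 ± 0.52 (obese), 4.23 ± 0.64 (rosiglitazone) and 4.53 ± 0.58 (resveratrol). Resveratrol minus obese was 0.84 (SE 0.30, adjusted p = 0.447), and resveratrol array 1, at 5.51, was the highest of all arrays. Alox5ap, the protein that presents arachidonic acid to it, gave 0.79 in the same comparison (adjusted p = 0.480). For these 7 genes the difference of resveratrol minus obese was above 0 in 7, with a median of 0.42. It was also above 0 for 8 of 8 macrophage markers (median 0.71) and 6 of 6 fibroblast markers (0.77). For adipocyte markers it was above 0 in 0 of 5 (-0.38). The adipocyte score had a median of 0.24 on the resveratrol arrays and 0.16 on the obese arrays, with resveratrol array 1 at -1.98. These marker counts were not remade without that array. The part of these markers in the 7 differences was not tested. The 4 histamine receptor genes were measured, lay under the median gene and were not called.

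Among 7 measured of 11 genes for the growth and survival of mast cells, Kitlg and Il33 were called. With rosiglitazone, 1 of the 7 was called against the obese, 2 against the lean control and 2 against the resveratrol group. Of all genes, 9.86%, 5.19% and 6.90% were called in these comparisons. Kitlg encodes stem cell factor, the ligand of Kit. Its levels were 6.47, 6.91, 6.95, 6.80 and 6.86 in the lean control group and 6.55, 6.18, 6.60, 6.34 and 6.24 in the obese group. With rosiglitazone they were 5.96, 6.13, 5.68, 5.52 and 5.94, and with resveratrol 6.16, 6.71, 6.83, 6.81 and 6.83. Every rosiglitazone array lay below every array of the other groups, the nearest being resveratrol array 1.

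Kitlg was lower with rosiglitazone (5.85 ± 0.24) than in the obese group (6.38 ± 0.19) by 1.45-fold (log2 difference -0.54, SE 0.15, adjusted p = 0.0287). It was 1.94-fold lower than in the lean control group (-0.95, adjusted p = 0.000630) and 1.77-fold lower than in the resveratrol group (-0.82, adjusted p = 0.00227). The call against the obese group was lost without rosiglitazone array 3 or 4 or obese array 1 or 3 (adjusted p of 0.0583 to 0.0747), while the other 2 held with any 1 array left out. Obese minus lean control was -0.42 (adjusted p = 0.235). Kit itself, the receptor, was not called in these comparisons (rosiglitazone minus obese 0.02, 95% interval -0.40 to 0.45).

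Il33, an alarmin of endothelial and stromal cells that acts on mast cells, had means of 6.37 (lean control), 5.95 (obese), 5.15 (rosiglitazone) and 6.57 (resveratrol). The rosiglitazone arrays read 5.28, 5.45, 5.20, 4.42 and 5.39, below every lean control array (5.98 to 6.87) and every resveratrol array (6.26 to 7.55). The differences were -1.22 against the lean control group (adjusted p = 0.0118) and -1.42 against the resveratrol group (adjusted p = 0.00372). Against the obese group, whose array 2 stood at 4.88 with the others at 6.14 to 6.35, the difference was -0.81 (adjusted p = 0.0772). Every rosiglitazone array lay below the obese arrays other than array 2. Obese array 2 lowers the obese mean, and the difference without that array is not reported here.

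Kitlg and Il33 are also made by endothelium. The score of the 6 endothelial markers, described above, ran from -0.76 to -0.40 on the rosiglitazone arrays and from -0.23 to 0.54 on the others. The part of the endothelial markers in the levels of Kitlg and Il33 was not tested.

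**Figure D5:**
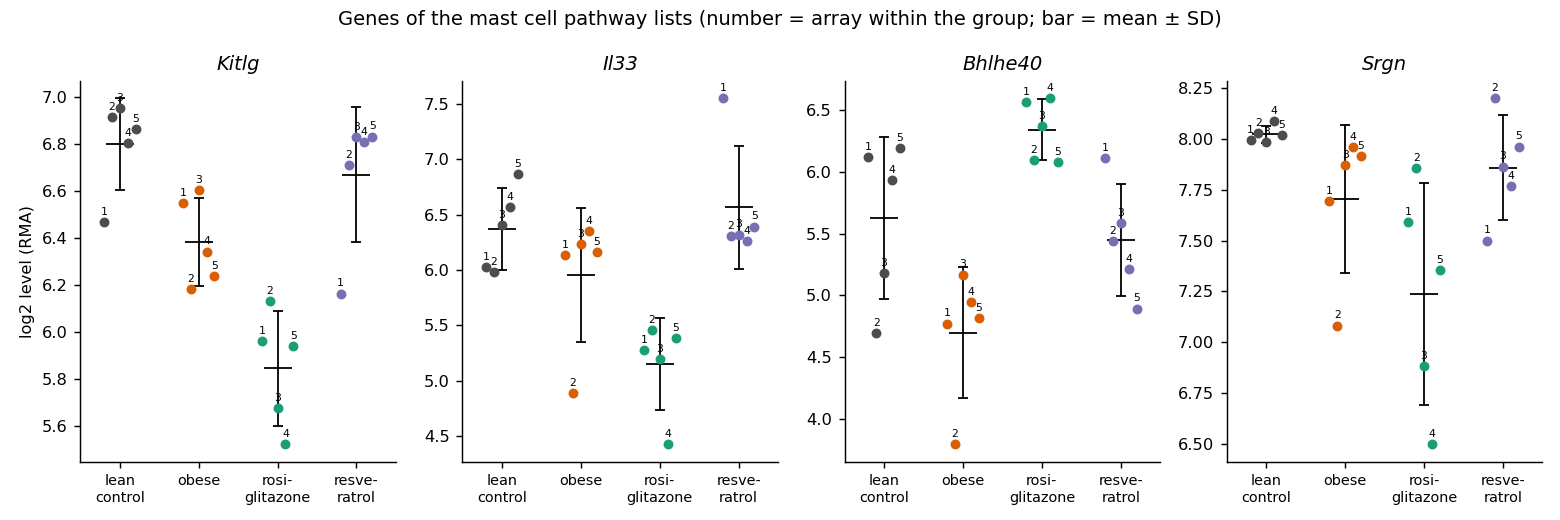
Log2 level (RMA) of Kitlg, Il33, Bhlhe40 and Srgn on all 20 arrays; points are arrays numbered within the group, bars are the group mean ± SD (n = 5), and each panel has its own vertical scale. The rosiglitazone arrays lie lowest for Kitlg (5.52 to 6.13), below all lean control and resveratrol arrays for Il33 (4.42 to 5.45), and above all obese arrays for Bhlhe40 (6.08 to 6.60).

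Of 15 partners and signalling genes of the IgE receptor, 11 were measured. Syk was lower with rosiglitazone than in the obese group, 1 of 11 where 9.86% of all genes were called. Fcer1g, Syk and Lcp2 were lower with rosiglitazone than with resveratrol, 3 of 11 where 6.90% of all genes were called. Syk, the kinase recruited by the receptor, differed by -1.01 (SE 0.31, adjusted p = 0.0442) against the obese and -1.11 (adjusted p = 0.0333) against the resveratrol group. Fcer1g, the signalling chain shared with other Fc receptors, differed by -1.58 (adjusted p = 0.0277). Lcp2, the adaptor SLP-76, differed by -1.23 (adjusted p = 0.0134).

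These genes are used by macrophages as well as mast cells. The 8 measured macrophage markers had scores of 0.46 to 0.89 on the resveratrol arrays and -1.28 to 0.29 on the rosiglitazone arrays, and 2 of them, Cd68 and Adgre1, were lower with rosiglitazone than with resveratrol. The part of macrophage markers in these differences was not tested. The calls for Syk were the least firm: that against the obese group was lost without any 1 of 11 arrays (adjusted p up to 0.110) and that against the resveratrol group without any 1 of 7 (up to 0.0920). The call for Fcer1g was lost without rosiglitazone array 2 or 4 or resveratrol array 2 or 5 (up to 0.0837), and that for Lcp2 held with any 1 array left out. Without the 3 arrays that stood apart, rosiglitazone minus resveratrol missed the threshold for Fcer1g (-1.23, adjusted p = 0.0627) and Syk (-0.96, adjusted p = 0.0693).

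Of 8 measured transcription factors beside Gata2, 1 was called, for rosiglitazone minus obese, where 9.86% of all genes were called. Bhlhe40, a repressor induced in many cells, mast cells included, was higher with rosiglitazone than in the obese group by 3.13-fold (log2 difference 1.64, SE 0.28, adjusted p = 0.000772). Its levels were 6.57, 6.10, 6.37, 6.60 and 6.08 with rosiglitazone and 4.77, 3.79, 5.17, 4.95 and 4.82 in the obese group, with no overlap. Against the lean control and resveratrol groups it differed by 0.72 (adjusted p = 0.166) and 0.89 (adjusted p = 0.0612).

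Basophils and eosinophils share some genes with mast cells. Of the basophil list 3 of 6 genes were measured and of the eosinophil list 5 of 6, and none was called in any comparison. The basophil score ran from -0.41 to 0.25 with rosiglitazone and from -0.28 to 0.24 in the other groups, and the eosinophil score from -0.05 to 0.24 and from -0.25 to 0.16. The score of the 8 mast cell genes themselves ran from -0.15 to 0.38 with rosiglitazone, -0.45 to 0.10 in the obese, -0.09 to 0.17 in the lean control and -0.02 to 0.36 in the resveratrol group, so the groups overlapped.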

How the data were processed

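Total RNA (100 ng per sample) from retroperitoneal tissue of 20 rats was measured on Affymetrix whole-transcript rat arrays, per the labels' protocols. The deposited table holds log2 values, 1 column per array, made with RMA (background correction, quantile normalisation, probe summary) per the submitters' processing notes; the sources used here give no version. Scanner files were not used, so the log2 scale was read from the values. Of 36685 features, 14824 had exactly 1 gene symbol, and the brightest feature per gene left 14557 genes.

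Groups were compared in R 4.3.3 by limma 3.58.1, using lmFit and eBayes with 4 group means over all 20 arrays and 16 residual degrees of freedom, two-sided, with Benjamini-Hochberg adjustment over all genes of a comparison. The number of arrays limits the precision; no array had a count of reads behind it. Folds were left out for groups averaging less than the median gene. Genes most like Cpa3 were the 5 with the highest correlation. Beside the called genes of each pathway list, up to 2 genes with the smallest p are named. Members and lists were chosen with earlier results of these data known. Alternatives were other normalisations, filters, feature choices and fits, and leaving out arrays. Protein sequences were not used here. Whether the arrays were processed in batches is not given in the sources used here.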

Additional observations from a re-analysis of the deposited data

Results flagged for a closer look

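Of 32 combinations of a measured mast cell gene and a group, 2 held an array whose distance from the nearest of the other 4 was large beside the range of the group, by Dixon's test at 95%; chance gives about 1 in 20. Cpa3 lay at 6.13 on resveratrol array 1 and at 4.45 to 4.88 on the others. Fcer1a lay at 1.52 on rosiglitazone array 5 and at 1.74 to 1.78 on the others. Resveratrol array 1 also had the high skeletal muscle and milk protein scores, and its part in the Cpa3 level was not tested.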

How the results depend on the processing

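Each comparison was recomputed under 32 alternatives (30 for the F test). Tpsab1 passed under all of them for rosiglitazone minus obese (adjusted p 0.00120 to 0.0356) and in the F test (0.00277 to 0.0384). The number of members called stayed at 0 for the comparisons without the rosiglitazone group.

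For rosiglitazone minus obese it was 2 with quantile normalisation again, without dim genes and with the replicate number as a block, and 1 to 2 with 1 array left out; the added member was Gata2 (adjusted p 0.0496, 0.0412 and 0.0313). For rosiglitazone minus lean control it was 0 with a 1.2-fold minimum (Tpsab1, adjusted p 0.122), 2 in a fit of the compared groups alone, 2 without resveratrol array 1 and obese array 2, and 2 without these and rosiglitazone array 2, Gata2 being added each time, and 1 to 2 with 1 array left out. For rosiglitazone minus resveratrol it was 0 with the 1.2-fold minimum (adjusted p 0.194) and 0 to 1 with 1 array left out. In the F test it was 1 without the pair and 1 without the trio of arrays, where Cpa3 fell short, and 1 to 2 with 1 array left out.

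Small differences that were not called changed sign. Kit, rosiglitazone minus obese, was -0.00396 with quantile normalisation again, -0.064 without the pair of arrays, and -0.094 to 0.14 with 1 array left out. Tpsb2, rosiglitazone minus lean control, was 0.029 with array weights, 0.043 without the trio and -0.30 to 0.043 with 1 left out; against resveratrol it was -0.059 to 0.26. Gata2, obese minus lean control, was -0.15 without the pair or the trio and -0.15 to 0.43 with 1 left out, and Tpsab1 there was -0.21 to 0.031.

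The shift of Tpsab1 less Tpsb2 was 0.79 against the obese and 0.79 against the resveratrol group without the trio, and its adjusted p of 0.0571 comes from the smallest exact permutation p that 4 against 4 arrays allow.

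Of the pathway genes, a 1.2-fold minimum ended the calls of Srgn (adjusted p 0.296), Kitlg against obese (0.473), Il33 against lean control (0.0748), Fcer1g (0.103), Lcp2 (0.0771) and Syk (0.239 against obese, 0.172 against resveratrol). Testing all features ended those of Srgn (0.0542), Fcer1g (0.0594) and Syk (0.0700 and 0.0687), the block that of Srgn (0.0539), and the compared groups alone those of Srgn (0.0671) and Syk against obese (0.0599).

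The labels state no pairing of samples. Same-numbered arrays of different groups deviated with a median r of 0.031 (-0.21 to 0.36, 30 pairs, 5 over 0.1), against -0.0077 for other numbers. Of 20 arrays, 6 correlated best with their own number. These values cannot show whether the samples were paired. Genes called over the alternatives ranged from 0 to 65 (26 in the fit reported, 3 with the block) for obese minus lean control, 0 to 398 (18, block 71) for resveratrol minus lean control, 0 to 3 (0) for resveratrol minus obese, 363 to 2154 (1436) for rosiglitazone minus obese, 232 to 1072 (755) for rosiglitazone minus lean control, and 270 to 1337 (1004) for rosiglitazone minus resveratrol. Dim probes limit what can be seen of Fcer1a, Ms4a2 and Hdc.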
